A study of Homo sapiens with 4 samples.

Results

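Lysosomes digest proteins, lipids and sugars in an acidic lumen. The acid is made by the vacuolar H+-ATPase (V-ATPase), a rotary pump whose V1 domain splits ATP on the cytosolic face and whose V0 domain carries protons through the membrane. Cathepsins are the proteases that work in the lumen, LAMP proteins coat the inner side of the membrane, and the factors TFEB and TFE3 switch on many genes of the organelle when mTORC1 signalling at its surface is low. The genes described here are the rows of the count table whose symbol starts with ATP6V or ATP6AP, names a cathepsin (CTS and 1 letter) or starts with LAMP and a digit, together with PSAP, NPC1, NPC2, SCARB2, TFEB and TFE3. This rule found 55 of the 24462 symbols in the table, on 67 rows (ATP6V1G2 and ATP6V1G2-DDX39B stood on 7 each).

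RNA was sequenced from cells labelled SKOV-3, a human ovarian cancer line. In 2 libraries the cells had been given the solvent DMSO, and in 2 they had been given 40 µM RAME, which is rosmarinic acid carrying a methyl ester, for 24 h. No allele or other agent is named for either group, and the labels do not say that the 2 libraries of a group came from separate cultures. P-values here thus reflect no more than the spread among these 4 samples, and that spread may be technical. The comparison asks which transcripts differed in amount after the treatment.

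The libraries held between 1441575 and 2543566 reads assigned to genes, the RAME libraries fewer than the DMSO libraries, and 8052 to 8708 genes with a read. Libraries of the same group differed by more than sampling noise (chi-square per degree of freedom 28.8 between the DMSO libraries, from 5416 genes, and 15.4 between the RAME libraries, from 5041). The label was checked against 9 markers of epithelial and ovarian cancer lines, of which 5 had a read, with a summed level of 7.88 to 17.3 RPM (reads-per-million of the reads assigned to genes) per library. KRT7, KRT19, EPCAM and ERBB2 had 0 reads in every library, which goes against the label, and PAX8 had 9 to 24. ATP6V0D1, a gene that most cells use, was also at 0, and the part of the annotation and the counting in such zeros was not tested. Of 15 markers of blood, endothelial and connective tissue cells 7 had a read, with a summed level of 22.1 and 28.3 RPM under DMSO and 12.5 and 12.9 RPM under RAME. Most of these reads were COL1A2, a collagen gene, with 42 and 58 under DMSO and 14 and 12 under RAME. It was the 1 gene of this list that passed the filter (log2 fold change −1.23, edgeR adjusted p = 0.142). COL1A1 had 6, 6, 1 and 8 reads. PTPRC, CD3E, MS4A1, PECAM1 and CDH5 were among those at 0. The part of cell identity in the results was not tested. The kit primes at the poly(A) tail, so 1 transcript gives about 1 read whatever its length, and levels of different genes are given without a length term. They are reads per row of the table, and rows can share reads with another gene. The libraries are bulk, so fewer cells with a transcript and less of it per cell cannot be told apart.

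TFEB and TFE3 bind a short palindrome, CACGTG, often in the extended form TCACGTGA, in the promoters of lysosomal genes. Promoter windows of 300 bases (250 before the start of the gene and 50 after) from RefSeq, build GRCh38.p14, matched 38 of the 55 symbols in 48 windows, some of which overlap. Both motifs read the same on either strand, and the first lies inside the second. CACGTG stood in 9 of the 48 windows (18.8%) and in 7.26% of all 35116 windows of the table. TCACGTGA stood in 4 windows (8.33%) and in 0.98% of all windows. Each of the 4 belonged to another gene: a subunit of the V0 domain, a subunit of the V1 domain, a cathepsin and a LAMP. The 4 sites are printed because the same motif stands in windows of genes with different roles in the list. The motif is in capitals with 11 bases on either side, 5′ to 3′ on the strand of the gene. They lie at chr16:67481199-67481228 on the minus strand (ATP6V0D1, 60 bases before the start), chr9:114587699-114587728 on the plus strand (ATP6V1G1, 59 before), chr20:45891298-45891327 on the plus strand (CTSA, 26 before) and chr13:113297199-113297228 on the plus strand (LAMP1, 29 before).
ATP6V0D1: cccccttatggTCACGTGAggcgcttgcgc
ATP6V1G1: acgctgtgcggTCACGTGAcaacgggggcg
CTSA: ggcgccggagtTCACGTGActcgtacacat
LAMP1: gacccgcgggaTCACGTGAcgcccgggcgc
Distances are counted from the first base of the motif. LAMP1 had a further TCACGTGA, which began 2 bases before its start and ran across it, and 4 further copies of CACGTG. The shorter motif also stood in windows of ATP6V0B, ATP6V0E2, CTSD and CTSF. A match describes the letters in the window only. The 4 genes printed differed widely in reads: ATP6V0D1 had 0 and CTSA 4 in all, ATP6V1G1 had 26 to 115 in each library and LAMP1 520 to 996.

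Of the 55 symbols 41 had a read and 14 had none. Enough reads for a test were found for 19 symbols (34.55% of the symbols). Counted as rows, 19 of the members' 67 passed, and 17.55% of all rows of the table did. Of the other 36 symbols, 6 had at least 10 reads over the libraries and 16 had 1 to 9. In the edgeR quasi-likelihood test with Benjamini-Hochberg adjustment over 4517 genes, 1 of the 19 tested members was called at an adjusted p under 0.05, which is 5.26% against 13.5% of all genes tested. It was ATP6V1C2, which was higher with RAME (6.46% of all genes were called higher). No member was called lower by edgeR, DESeq2 or limma-voom (7.08% of all genes by edgeR), and 1 was lower at an unadjusted p under 0.05 with each of these tools. An unadjusted p under 0.05 was found for 4 members (21.1%) and for 31.3% of all genes. The median log2 fold change of the 19 was 0.37, with 11 positive and 8 negative, and 0.35 without ATP6V1C2. Over all genes it was 0.01, with quartiles of −0.63 and 0.63. In 10 of the 19 both RAME libraries lay above both DMSO libraries, against 31.2% of all genes, and in 5 both lay below, against 29.5% of all genes. CTSD passed the filter through its RAME libraries alone and is in the counts of 4, 11 and 10. The standard errors (SE) of the members' log2 fold changes ran from 0.24 to 0.83, and for 2 members alone (ATP6V1B2 and ATP6V1H) the 95% interval excluded a 2-fold difference in either direction. With 2 libraries a group, the smallest two-sided p of an exact permutation test is 0.33, so single genes rest on the model across genes.

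**Figure D1:**
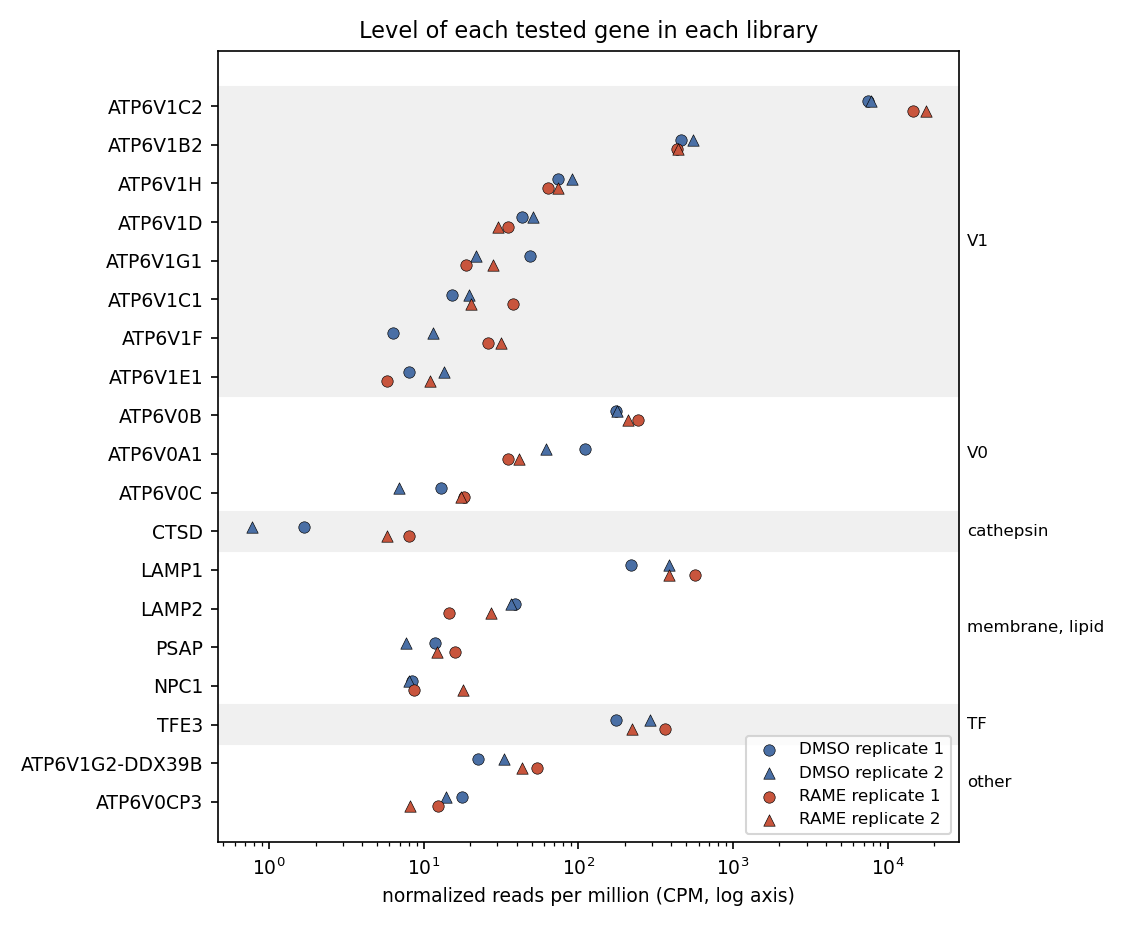
RPM after scaling by TMM library sizes (CPM, log axis) of the 19 tested genes in each library, with DMSO in blue and RAME in red, circles for replicate 1 and triangles for replicate 2, in bands by role. ATP6V1C2 stands above every other gene at 7508 to 17630 CPM, and CTSD has the lowest mean of both groups, with 0.770 to 7.99 CPM in single libraries.

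ATP6V1C2 encodes an isoform of subunit C, which holds the V1 and V0 domains together. Its row had 17865 and 20426 reads under DMSO and 20010 and 30313 under RAME, the sixth highest total of the table, and 86.5% of all reads of the 55 symbols. Scaled by library size (CPM, the same unit after TMM normalization), its level was 7508 and 7861 in DMSO and 14530 and 17630 in RAME, so both RAME libraries were higher. The log2 fold change was 1.07 (SE 0.24, 95% interval 0.54 to 1.59, edgeR adjusted p = 0.0166). Without RAME replicate 2 the log2 fold change was 0.88. Over alternatives that kept all libraries, the adjusted p ran from 0.00718 (DESeq2) to 0.0524 (edgeR), so the call was not always kept. This range leaves out a crossed pairing of the libraries, which was added after the data were seen.

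These reads cannot be assigned to ATP6V1C2. On the opposite strand its exons overlap those of PDIA6, a protein disulfide isomerase of the endoplasmic reticulum, by 1033 bases in the GENCODE 29 annotation. The PDIA6 row had 17875, 20466, 20060 and 30369 reads in the same order of libraries, which is 10, 40, 50 and 56 more than ATP6V1C2. In each library 99.75% to 99.94% as many reads stood on the ATP6V1C2 row as on the PDIA6 row. PDIA6 had the same log2 fold change to 2 decimals (1.07) and the same adjusted p (0.0166, edgeR). No source used here states whether strand was used in counting, and reads of the pump subunit and of the isomerase cannot be told apart. Without ATP6V1C2, 0 of 18 tested members were called by edgeR, DESeq2 or limma-voom. At an unadjusted p under 0.05 in edgeR 2 were higher, 1 of them CTSD, tested through its RAME reads alone, and 1 was lower. The 54 remaining symbols had 13779 reads in all.

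**Figure D2:**
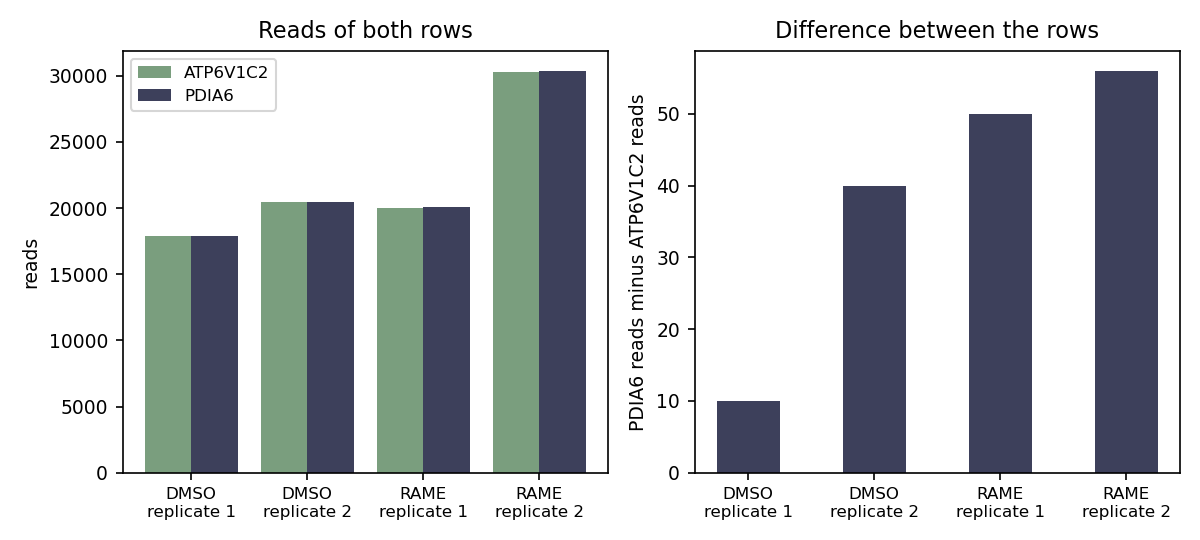
Reads assigned to the ATP6V1C2 row (green) and the PDIA6 row (dark) in each library, and the difference between the rows in reads. The rows hold 17865 to 30369 reads and differ by 10 to 56.

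The other V1 subunits had far fewer reads, most of them from 1 gene, ATP6V1B2. Without ATP6V1C2 the V1 genes held 679.9 and 781.2 RPM under DMSO and 600.7 and 619.3 under RAME (730.5 ± 71.7 and 610.0 ± 13.1, SD, n = 2), a ratio of 0.835. Both RAME libraries lay below both DMSO libraries. With TMM library sizes the means lay closer together, at 711.8 under DMSO and 634.7 under RAME. ATP6V1B2, the widely expressed isoform of the ATP-binding subunit B, had 1091 and 1427 reads under DMSO and 600 and 757 under RAME, or 503.8 ± 64.1 and 438.0 ± 3.19 CPM (SD, n = 2). Its log2 fold change of −0.20 did not pass the test (95% interval −0.81 to 0.41, edgeR adjusted p = 0.673). ATP6V1H, a subunit that restrains ATP splitting when V1 is free of V0, had 175 and 236 reads against 87 and 127, and its groups overlapped (82.2 ± 12.2 and 68.5 ± 7.55 CPM, SD, n = 2). The fold change was −0.26 on the log2 scale (−0.98 to 0.46, edgeR adjusted p = 0.632).

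Subunits D and F form the central stalk that turns as ATP is split. ATP6V1F had 15 and 30 reads under DMSO and 36 and 54 under RAME, or 8.93 ± 3.71 and 28.8 ± 3.72 CPM (SD, n = 2), with both RAME libraries above both DMSO libraries. Its log2 fold change of 1.68 (SE 0.52, 95% interval 0.55 to 2.81) came with an adjusted p of 0.0513 in edgeR, just short of a call. The log2 fold change was 2.20 without DMSO replicate 2 and 1.29 without DMSO replicate 1. With all libraries kept and the crossed pairing left out, the adjusted p ran from 0.0419 to 0.0888 (edgeR) over the alternatives. KCP, which overlaps it on the opposite strand, had 0 reads. ATP6V1D had 103 and 133 reads under DMSO and 48 and 52 under RAME, or 43.3, 51.2, 34.9 and 30.3 CPM. Both of its RAME libraries were lower, at a log2 fold change of −0.54 (SE 0.38, edgeR adjusted p = 0.372). Its exons overlap EIF2S1, a translation initiation factor on the opposite strand, by 269 bases, and EIF2S1 had 1307, 1356, 445 and 451 reads (log2 fold change −0.87, edgeR adjusted p = 0.0625). How many reads of ATP6V1D come from EIF2S1 was not tested.

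Subunits E and G make the peripheral stalks, and C1 is the widely expressed isoform of the subunit that joins them to V0. ATP6V1G1 had 115 and 57 reads under DMSO and 26 and 48 under RAME, and its DMSO libraries differed 2.2-fold in CPM from each other, so the groups overlapped. On the log2 scale the difference was −0.58 (−1.66 to 0.51, edgeR adjusted p = 0.467) and 0.07 without DMSO replicate 1. ATP6V1E1 had 19 and 35 against 8 and 19 reads, also with overlap (log2 fold change −0.33, SE 0.62, edgeR adjusted p = 0.757, and −0.92 without RAME replicate 2). ATP6V1C1 had 36 and 51 reads against 52 and 35. In CPM these are 15.1, 19.6, 37.8 and 20.4, so RAME replicate 2 lay only just above DMSO replicate 2, at a log2 fold change of 0.73 (−0.34 to 1.80, edgeR adjusted p = 0.337).

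Subunit A, which splits the ATP, fell under the filter. ATP6V1A had 8 and 9 reads under DMSO and 5 and 6 under RAME, 3.36 to 3.63 CPM in every library, and its ratio of RAME over DMSO was 1.04 (exact 95% counting interval 0.441 to 2.36). Intervals on reads cover counting error only, since PCR copies of 1 molecule were not marked by molecular identifiers. ATP6V1E2 had 6, 9, 3 and 3 reads and overlaps RHOQ, a small GTPase gene of the opposite strand. ATP6V1B1, an isoform best known from kidney and inner ear, had 1 read in all, and ATP6V1G2 and ATP6V1G3 had none.

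The V0 domain held 310.4 and 252.0 RPM under DMSO and 285.1 and 261.6 under RAME (281.2 ± 41.3 and 273.3 ± 16.7, SD, n = 2), a ratio of 0.972. With TMM library sizes the means were 273.8 under DMSO and 284.5 under RAME, so their order turned. The V0 domain thus showed no direction. The 3 tested genes of V0 did not share a direction. ATP6V0A1, an isoform of the large subunit a that forms the proton path and steers the pump to its membrane, had 264 and 160 reads under DMSO and 48 and 71 under RAME. In CPM this is 111.0 and 61.6 against 34.9 and 41.3, with both RAME libraries lower. Its log2 fold change of −1.18 (SE 0.39, 95% interval −2.03 to −0.32) had an adjusted p of 0.0637 in edgeR and did not pass. The log2 fold change was −0.72 without DMSO replicate 1 and −1.52 without DMSO replicate 2. Its adjusted p ran from 0.0392 to 0.163 (edgeR) over the alternatives that kept all libraries, with the crossed pairing left out.

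ATP6V0B and ATP6V0C encode proteolipids of the ring that carries protons. ATP6V0B had 415 and 462 reads under DMSO and 337 and 360 under RAME, which after scaling is 174.4, 177.8, 244.8 and 209.4 CPM. The RAME libraries were both higher, at a log2 fold change of 0.37 (−0.28 to 1.02, edgeR adjusted p = 0.437). ATP6V0C had 31 and 18 reads, then 25 and 30 with RAME (log2 fold change 0.84, SE 0.55, edgeR adjusted p = 0.325). Its pseudogene ATP6V0CP3 had 42 and 36 reads under DMSO and 17 and 14 under RAME, with the RAME libraries lower (log2 fold change −0.63, SE 0.54, edgeR adjusted p = 0.472). The pseudogene is 92.3% identical to ATP6V0C over 468 aligned bases, so reads may be split between them and both values are uncertain. Together they held 127 reads under DMSO and 86 under RAME.

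No other V0 gene could be tested. ATP6V0D1, the widely expressed isoform of subunit d, which links the turning stalk to the ring, had 0 reads in every library, as did the isoforms ATP6V0D2 and ATP6V0A4. A count of 0 over a group allows up to 3 reads, or 0.603 CPM in DMSO and 0.969 CPM in RAME. ATP6V0E1 had 5, 1, 1 and 1 reads, and ATP6V0A2 and ATP6V0E2 had 2 reads each in all. The accessory subunits ATP6AP1 and ATP6AP2 (the prorenin receptor) had 2, 1, 6 and 1 reads and 10, 8, 16 and 4 reads, with RAME replicate 1 highest in both. The ATP6AP1L row and the antisense rows ATP6V1B1-AS1 and LAMP5-AS1 had 0 reads, and ATP6V0E2-AS1 had 1. ATP6V1G2-DDX39B, a read-through row, had 53 and 86 reads under DMSO and 74 and 74 under RAME (log2 fold change 0.80, SE 0.41, edgeR adjusted p = 0.204). It shares 2079 exonic bases on the same strand with DDX39B, an RNA helicase with 68, 92, 98 and 96 reads, while ATP6V1G2 itself had 0. Its reads are therefore uncertain as reads of a pump gene.

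**Figure D3:**
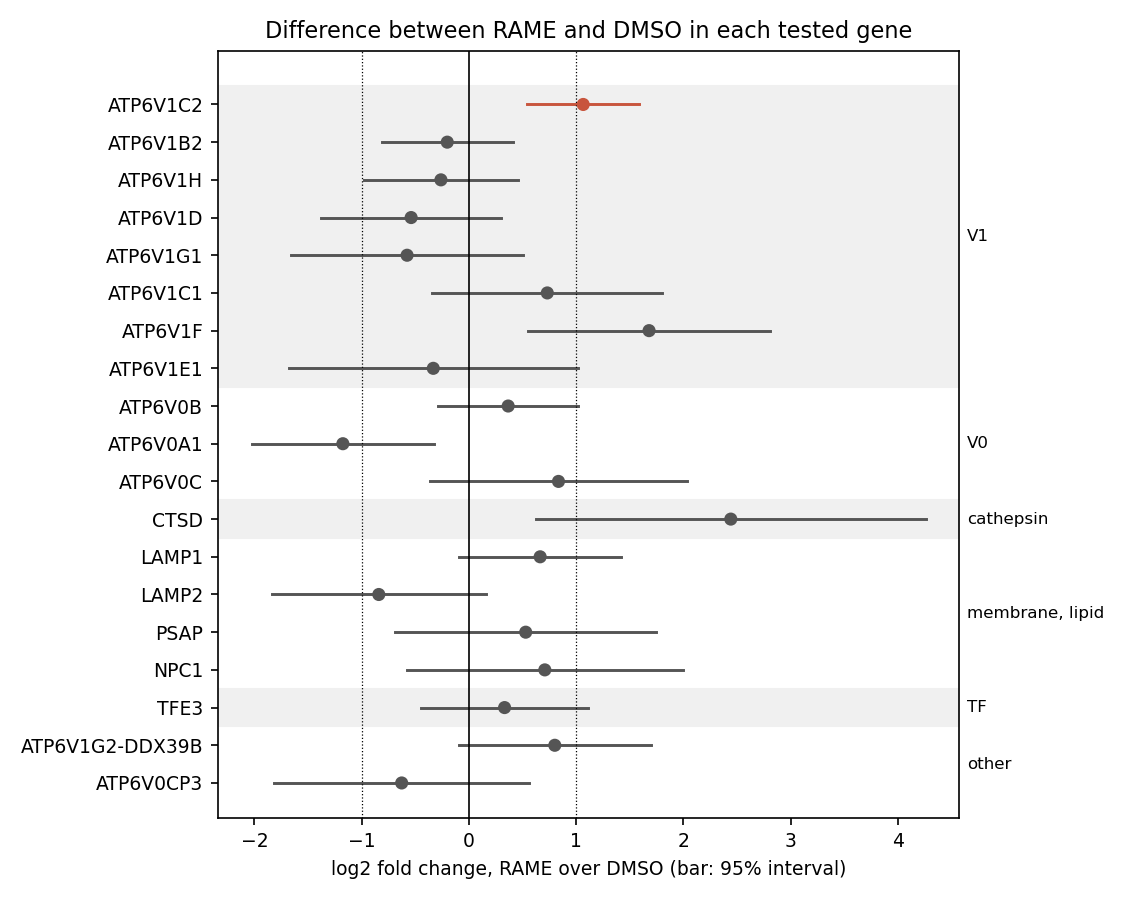
Log2 fold change of RAME over DMSO of the 19 tested genes, with 95% intervals as bars, 0 as a solid line and 2-fold differences as dotted lines. ATP6V1C2, in red, is the 1 gene called. The largest fold change is that of CTSD (2.44, interval 0.63 to 4.26), which passed the filter through its RAME libraries alone.

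Cathepsin reads were scarce. The 15 cathepsin symbols had 126 reads of 8069302 in all libraries, 11 of them had a read, and 1 passed the filter. CTSD, the aspartic protease of the lumen, had 4 and 2 reads under DMSO and 11 and 10 under RAME, or 1.68, 0.770, 7.99 and 5.82 CPM. Both RAME libraries were higher. The log2 fold change of 2.44 had a wide interval (0.63 to 4.26) and an adjusted p of 0.0697 in edgeR, short of the threshold. Only the RAME libraries reached the minimum of the filter, so CTSD was tested because its RAME reads were high. Its direction therefore carries no weight of its own. Over the alternatives that kept all libraries, with the crossed pairing left out, the adjusted p ran from 0.062 to 0.21 in edgeR (0.203 in DESeq2).

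CTSC, which activates serine proteases of immune cells, had 59 reads in DMSO replicate 1 and 3, 2 and 2 in the other libraries. It did not pass the filter. In a fit of all 11683 genes with a read it was called lower (log2 fold change −3.29, edgeR adjusted p = 0.00829), but DMSO replicate 2 lay at 1.16 CPM beside 1.45 and 1.16 in RAME, so the difference rests on DMSO replicate 1. CTSH, an aminopeptidase, had 10 reads in the same library and 0, 1 and 0 elsewhere. Without CTSC the cathepsins had 60 reads in all.

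The cysteine proteases CTSB and CTSL, which most cell types express, had 9 reads (4, 3, 1 and 1) and 1 read in all. CTSA, a carboxypeptidase that also shields other lysosomal enzymes, had 0, 1, 1 and 2. CTSV had 3 reads, CTSO 2, and CTSF, CTSS and CTSZ 1 each. CTSK of osteoclasts, CTSG of neutrophils, CTSW of cytotoxic lymphocytes and CTSE had 0. Among all 16 members with 1 to 9 reads, the smallest adjusted p in the fit without a filter was 0.589 (edgeR). Changes in these genes were not detectable at this depth.

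LAMP1 and LAMP2, the main glycoproteins of the lysosomal membrane, had fold changes of opposite sign, and neither passed the test. LAMP1 had 520 and 996 reads under DMSO and 780 and 667 under RAME. Its levels were 218.5 and 383.3 against 566.5 and 388.0 CPM, so RAME replicate 2 and DMSO replicate 2 were nearly equal while the libraries of each group spread over 1.75-fold and 1.46-fold. The log2 fold change was 0.66 (−0.09 to 1.42, edgeR adjusted p = 0.215). Without DMSO replicate 2 it was 1.15, and without DMSO replicate 1 it was 0.29. The adjusted p of LAMP1 ran from 0.15 to 0.41 (edgeR) over the alternatives that kept all libraries, with the crossed pairing left out. LAMP2, which also serves chaperone-mediated autophagy, had 92 and 96 reads under DMSO and 20 and 47 under RAME, or 38.7, 36.9, 14.5 and 27.3 CPM. Both RAME libraries were lower, at a log2 fold change of −0.84 (−1.84 to 0.16, edgeR adjusted p = 0.236). The difference between both genes was not tested. LAMP3 and LAMP5, forms of particular cell types, had 0 reads.

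NPC1 exports cholesterol from the lysosome and PSAP is the precursor of the saposins, which help enzymes to reach their lipids. NPC1 had 20 and 21 reads under DMSO and 12 and 31 under RAME, or 8.41, 8.08, 8.72 and 18.0 CPM, so the RAME libraries differed 2.07-fold from each other. For NPC1 the log2 fold change was 0.71 (SE 0.59, edgeR adjusted p = 0.451), and 0.04 without RAME replicate 2. PSAP had 28, 20, 22 and 21 reads, with a log2 fold change of 0.53 (SE 0.56, edgeR adjusted p = 0.558). NPC2, the luminal partner of NPC1, had 3 reads in all, and SCARB2, the receptor that carries glucocerebrosidase to the lysosome, had 6. The membrane and lipid genes summed to 287.0 and 446.6 RPM under DMSO and 579.9 and 432.0 under RAME, with overlap between the groups, and most of these reads were LAMP1.

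The genes of the factors themselves were unequal in reads. TFE3 had 416 and 752 reads under DMSO and 500 and 382 under RAME, or 232.1 ± 81.0 and 292.7 ± 99.7 CPM (SD, n = 2). Its groups overlapped, at a log2 fold change of 0.33 (−0.45 to 1.11, edgeR adjusted p = 0.566), and the sign turned without DMSO replicate 1 (−0.01) and without RAME replicate 1 (−0.07). TFEB had 1 read in all. mTORC1 is known to control where TFE3 lies in the cell, which the RNA level does not show.

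**Figure D4:**
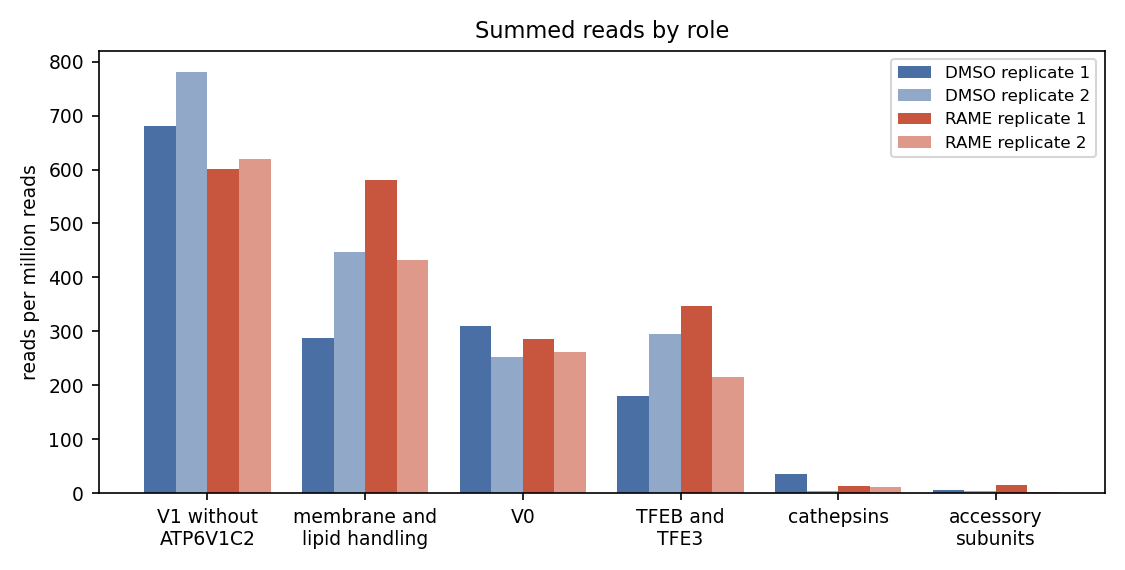
Reads assigned to genes, as RPM, summed over the genes of each role, in each library. The V1 genes without ATP6V1C2 hold 600.7 to 781.2, the membrane and lipid genes 287.0 to 579.9, and the cathepsins 3.54 to 34.7, the last set by CTSC in DMSO replicate 1.

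Other lysosomal genes were counted in 6 lists. Of 38 hydrolases and their activators other than cathepsins, 29 had a read, 33 had under 10, and none passed the filter. They held 149 reads in all, with 12.6 to 27.7 RPM in each library, so reads of the other luminal enzymes were scarce too. The part of the annotation and the counting, which no source used here describes, in these low counts and in those of the cathepsins was not tested. Of 8 inhibitors of cathepsins 5 had a read, 10 reads in all, and none could be tested.

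Of 23 other membrane proteins and transporters 3 passed the filter, 1 was called lower and none higher by edgeR, where 7.08% and 6.46% of all genes were. DESeq2 also called 1 lower and 0 higher, and limma-voom called none. The lower gene was CD164, a sialomucin of the lysosome and cell surface, with 597 and 172 reads under DMSO and 22 and 34 under RAME. Both DMSO libraries were higher, though 3.79-fold apart in CPM. Its log2 fold change was −3.14 (SE 0.59, edgeR adjusted p = 0.0113) and −1.91 without DMSO replicate 1. In limma-voom it was −2.81, with an adjusted p of 0.0613, the highest of all alternatives. The lowest planned value with all libraries kept was 3.92e-12 (edgeR without the filter). CD63, a tetraspanin of late endosomes, had 313, 538, 651 and 369 reads (log2 fold change 1.02, edgeR adjusted p = 0.116). It was the only member of this list higher at an unadjusted p under 0.05. In CPM it stood at 131.5, 207.0, 472.8 and 214.6, so RAME replicate 2 lay only just above DMSO replicate 2.

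The remaining lists concern the pump's partners and the control of TFE3. Of 13 further V-ATPase subunits, assembly factors and regulators 2 were tested, VMA21 and DMXL1, with log2 fold changes of −0.17 and 0.24, and neither had an unadjusted p under 0.05 in edgeR, DESeq2 or limma-voom. Of 19 genes that sort enzymes to the lysosome 7 were tested and none was called by edgeR or limma-voom. GNPTG had 14, 20, 4 and 8 reads, and UNKL, which overlaps it on the opposite strand, had 14, 20, 4 and 9. The reads of GNPTG are therefore uncertain. GGA2, with 1, 11, 11 and 9 reads, passed the filter through its RAME libraries alone. IGF2R, the large mannose 6-phosphate receptor, had 199, 71, 13 and 33 reads (log2 fold change −1.93, edgeR adjusted p = 0.0522), was the 1 gene of that list with an unadjusted p under 0.05, and was called lower by DESeq2 and by edgeR without the filter (adjusted p = 0.00145). In CPM IGF2R stood at 83.6 and 27.3 in DMSO and at 9.44 and 19.2 in RAME. Both RAME libraries were lower, but the DMSO libraries differed 3.06-fold from each other, with DMSO replicate 1 far above the rest.

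Of 24 genes of mTORC1 at the lysosome and of TFEB and TFE3 control 12 were tested, 1 was called higher and none lower by edgeR, with 2 higher and 0 lower at an unadjusted p under 0.05. Over all genes 6.46% were called higher and 7.08% lower, and 31.3% had an unadjusted p under 0.05. DESeq2 called 2 higher (with TSC1) and limma-voom 1. The gene edgeR called was LAMTOR1, which anchors the Ragulator complex and through it mTORC1 to the lysosome. It had 434 and 785 reads under DMSO and 917 and 769 under RAME, or 182.4, 302.1, 666.0 and 447.3 CPM, with both RAME libraries higher. RAME exceeded DMSO by a log2 fold change of 1.20 (SE 0.34, edgeR adjusted p = 0.0408). The log2 fold change fell to 0.85 without DMSO replicate 1 and to 0.87 without RAME replicate 1. The call was lost with library size only (1.11, edgeR adjusted p = 0.0513). Its adjusted p ran from 0.00855 to 0.0901 (edgeR) over the alternatives that kept all libraries, with the crossed pairing left out. TSC1, which restrains mTORC1, had 40, 95, 137 and 88 reads (log2 fold change 1.49, edgeR adjusted p = 0.0596).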

How the data were processed

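The 4 libraries were grouped by the sample titles. The authors made QuantSeq 3′ libraries from total RNA, aligned per the submitters' processing notes with Bowtie2 to build hg19. No source used here gives the aligner's version, the annotation, the counting tool or its strand setting. Raw counts of reads per gene were deposited by the authors and are what was analysed. Their normalized log2 values and their own fold and p-value columns were not used.

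The test was the quasi-likelihood test of edgeR 4.0.16, run in R 4.3.3 (filterByExpr with a minimum count of 10 and a total of 15, TMM, robust quasi-likelihood fit, Benjamini-Hochberg adjustment over 4517 genes, called at an adjusted p under 0.05). The biological coefficient of variation was 29.9%. Symbols on several rows were summed for levels, and the row with most reads was used in the test. Overlapping exons came from GENCODE 29, which is on another build, so no coordinates are taken from it, and the pseudogene was aligned with blastn 2.17.0. Intervals on read ratios are exact binomial at 95%.

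The gene rule, the lists and the alternatives were chosen with earlier results of these data known. Every tested member is named, of the others those with at least 10 reads, and of each list up to 5 called genes. Further genes with few or no reads, and CD63, IGF2R, GNPTG, GGA2, VMA21, DMXL1, TSC1 and COL1A2, were named after their values were seen. The alternatives were DESeq2 1.42.0, limma-voom (limma 3.58.1), other scalings, no filter, a replicate block, and leaving out each library. A crossed pairing was added after the data were seen.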

Additional observations from a re-analysis of the deposited data

How the results depend on the processing

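The count of members called higher (1) stayed at 1 with RLE factors, library size only, no filter, DESeq2 and limma-voom. It was 2 with upper quartile factors, which added ATP6V1F (edgeR adjusted p = 0.0419), and 0 when ATP6V1C2 was left out as sharing its reads with PDIA6. The count called lower (0) became 2 without the filter, ATP6V0A1 (edgeR adjusted p = 0.0392) and CTSC. Leaving out 1 library at a time gave 0 to 3 higher and 0 to 2 lower. The highest counts came without DMSO replicate 2 and the lowest without RAME replicate 2, where 987 and 532 genes of the table were called against 612 with all libraries. There were 368 without DMSO replicate 1 and 309 without RAME replicate 1. With TMM library sizes the summed level of V1 genes without ATP6V1C2 was 711.8 RPM in DMSO in place of 730.5, and 634.7 in RAME in place of 610.0. Of 228 pairs of a tested member and an alternative, 215 stayed on the same side of the threshold, 2 lost a call, 11 gained one and none reversed a call. The gained calls include those of the crossed pairing, chosen after seeing the data: ATP6V0A1, ATP6V1F, ATP6V1G2-DDX39B, CTSD, LAMP1 and LAMP2. The sign of the log2 fold change turned under an alternative in 3 members (ATP6V1E1, ATP6V1G1 and TFE3), none of them called.

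Upper quartile factors moved the median log2 fold change of all genes from 0.01 to 0.12 and the split of calls from 292 higher and 320 lower to 381 and 261. It was 255 and 389 with library size only, and 248 and 185 (433 in all) in limma-voom. The median of the members relative to that of all genes was positive in each of these. The causes were not tested.

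With the replicate block 0 members were called higher and 0 lower, and 437 genes of the table were called. ATP6V1C2 then had a log2 fold change of 1.06 and an adjusted p of 0.0524, and LAMTOR1 an adjusted p of 0.0901 (edgeR). Replicates with the same number deviated from their group means in opposite directions (correlation −0.335), and the numbers were not taken to pair the libraries. Whether libraries share a culture or day across groups was not tested. With the crossed pairing, chosen after seeing the data, 5 members were called higher and 2 lower, among 1787 genes of the table. With few reads per library, differences in members under about 10 reads were not detectable.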

Other observations

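Subunits that enter the pump in fixed proportion had very unequal reads. ATP6V1A and ATP6V1B2, which alternate in equal number around the V1 head, had 17 and 2518 reads under DMSO and 11 and 1357 under RAME, so the ratio of B2 to A was 148.1 and 123.4. ATP6V0D1, of which the pump holds a single copy, had 0 reads, while ATP6V0B had between 337 and 462 in each library. The reads of a 3′ library should depend little on transcript length, and the order of these genes was the same in all 4 libraries. What sets it was not tested.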
